A study of Mus musculus with 677 samples.

Results

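The 9 brush border hydrolases described here are the genes Sis, Lct, Mgam, Treh, Anpep, Dpp4, Enpep, Mme and Alpi, chosen by name for their function and all found among the 23420 genes of the deposited expression table. They were followed across 677 single cells from the intestinal epithelium of C57BL/6 mice. The cells came from Atg16l2-/- animals (KO) and from wild-type animals (WT), each represented by the animal codes M1 and M2, so that n = 2 animals per genotype. Atg16l2 encodes a relative of the autophagy protein ATG16L1. Age, sex, gut segment and the way the knockout was made are not given in the sources used here. The labels name SMART-Seq2, a plate-based method that reads whole transcripts, and also a droplet preparation from 10X Genomics, without saying which cells it concerns. Each cell carries 1 of 9 cell type names in its library title. These include Stem, TA, early and late enterocyte progenitors (Enterocyte.prog.early and Enterocyte.prog.late) and Enterocyte, which form the absorptive line, and the secretory Goblet, Paneth, Enteroendocrine and Tuft cells.

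The brush border is the carpet of microvilli on the face of the enterocyte that meets the gut lumen. Its hydrolases are anchored in that membrane with the active site outside the cell, and carry out the last cuts of digestion before transporters take up the products. Disaccharidases release single sugars, peptidases trim peptides from one end or cut within them, and intestinal alkaline phosphatase removes phosphate groups. The enzymes are textbook marks of the villus enterocyte, the cell that stem cells of the crypt give rise to through dividing intermediates.

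The upstream sequences of 4 members are shown because they bracket the order of expression found below: Mgam and Dpp4 had transcripts from the stem cell on, Sis appeared in early progenitors, and Lct appeared last. Each is the 250 bases before the RefSeq start site on build GRCm38.p6, written 5′ to 3′ on the strand of the gene. Capitals mark matches on either strand to short words bound by factors of the gut epithelium. The words were TTTATG for CDX factors, AGATAA for GATA factors, CAAAGT for HNF4 factors and GTTAAT, part of the HNF1 site. They were chosen with the expression values known.
Mgam, chr6:40628581-40628830, plus strand: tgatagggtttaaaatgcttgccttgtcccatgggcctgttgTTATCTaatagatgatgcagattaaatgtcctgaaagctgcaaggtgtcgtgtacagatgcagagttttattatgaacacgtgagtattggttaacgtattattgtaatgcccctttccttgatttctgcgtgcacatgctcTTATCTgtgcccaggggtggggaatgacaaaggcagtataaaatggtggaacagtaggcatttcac
Dpp4, chr2:62412232-62412481, minus strand: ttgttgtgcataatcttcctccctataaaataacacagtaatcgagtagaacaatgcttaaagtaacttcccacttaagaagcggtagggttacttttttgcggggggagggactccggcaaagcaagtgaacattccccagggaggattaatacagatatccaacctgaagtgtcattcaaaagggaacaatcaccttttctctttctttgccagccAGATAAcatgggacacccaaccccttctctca
Sis, chr3:72967864-72968113, minus strand: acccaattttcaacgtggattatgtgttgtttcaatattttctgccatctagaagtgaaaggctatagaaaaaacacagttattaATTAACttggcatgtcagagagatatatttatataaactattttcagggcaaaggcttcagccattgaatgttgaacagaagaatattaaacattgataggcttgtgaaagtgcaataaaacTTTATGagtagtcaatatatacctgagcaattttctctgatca
Lct, chr1:128328319-128328568, minus strand: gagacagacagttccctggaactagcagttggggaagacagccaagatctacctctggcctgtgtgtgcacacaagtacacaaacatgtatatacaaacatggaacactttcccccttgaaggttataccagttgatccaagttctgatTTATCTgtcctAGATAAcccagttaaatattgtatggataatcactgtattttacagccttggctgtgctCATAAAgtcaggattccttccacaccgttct

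The CDX word stood in the window of Lct and Sis, and in 10.8% of all 32851 promoter windows of the same length. The GATA word stood in Dpp4, Lct and Mgam, against 9.99% of all windows, so it was shared by the earliest and the latest members. The HNF4 word stood in Alpi, Mme and Treh, against 12.6% of all windows, and the HNF1 word in Sis alone of the 9, against 6.43%. No 2 of these words overlap each other in the windows shown. These are matches of letters, not measured binding sites.

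The libraries held between 3662 and 10472 genes above 0 TPM (a transcript abundance corrected for gene length and scaled to the same sum in each cell). The median was 6477 in run 1 and 5730 in run 2. Runs are named in the library titles, which do not say what a run is. Because every cell has the same sum, the depth of a library is unknown. Atg16l2 itself was above 0 TPM in 0 KO cells, which allows a share of up to 0.877% of them, and in 38 WT cells (11.3%). For each animal and cell type the TPM values were averaged over cells, and the animal was the unit of every test. Marker genes followed the type names: the summed level of 8 enterocyte markers was 27877 ± 5412 TPM in Enterocyte cells and 868 ± 112.6 TPM in Stem cells (SD, n = 4 animals).

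Along the absorptive line the 9 hydrolases did not appear together. Maltase-glucoamylase (Mgam) and dipeptidyl peptidase 4 (Dpp4) were present from the stem cell on. Aminopeptidase A (Enpep), intestinal alkaline phosphatase (Alpi) and sucrase-isomaltase (Sis) came up in early progenitors, and aminopeptidase N (Anpep) gained over each of the later steps. Neprilysin (Mme), trehalase (Treh) and lactase (Lct) made their largest gain at the step into the Enterocyte. Mgam and Dpp4 also made theirs at that step, from a higher start in Stem cells. The summed level of the 9 averaged 167.9 ± 8.75 TPM in Stem, 181.2 ± 21.1 TPM in TA, 431 ± 63.6 TPM in early progenitors, 1168 ± 200 TPM in late progenitors and 3668 ± 598 TPM in Enterocyte cells (SD, n = 4 animals). The make-up of that sum changed with it. Mgam gave 56.7% of it in Stem cells and 7.39% in Enterocyte cells, while Anpep gave 9.07% in Stem cells and 39.9% in Enterocyte cells.

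**Figure D1:**
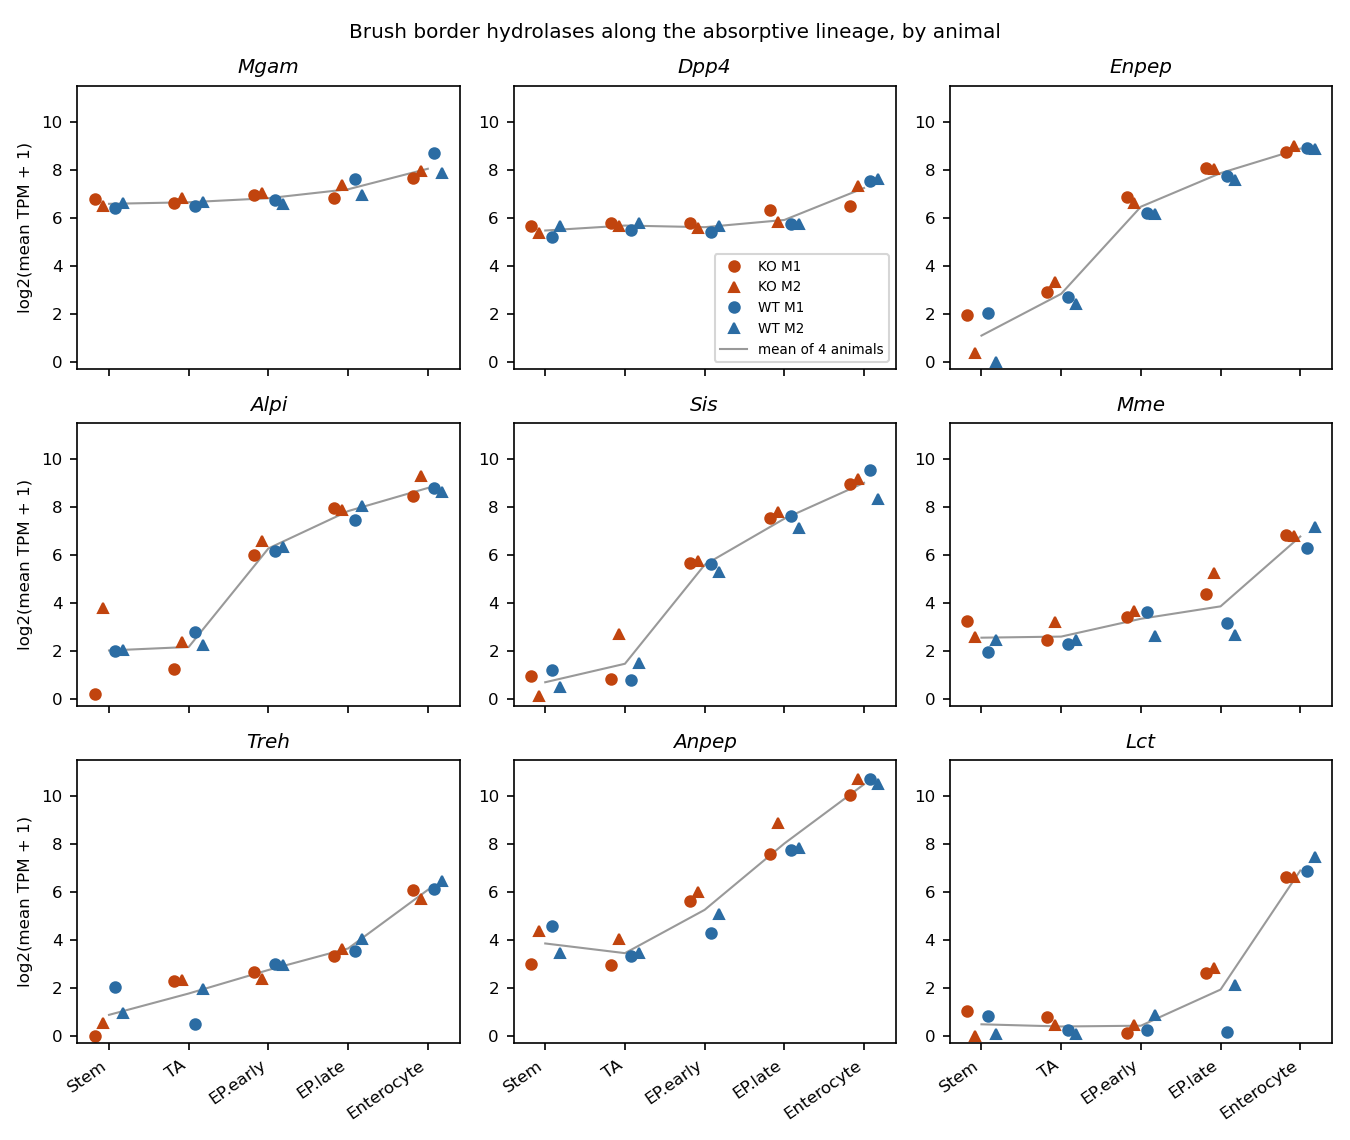
Mean TPM of each hydrolase over the cells of an animal, as log2(TPM + 1), along the 5 absorptive cell types (EP.early and EP.late are the early and late enterocyte progenitors). Points are animals (KO orange, WT blue) and the grey line is the mean of the 4 animals; Mgam and Dpp4 start high, Enpep, Alpi and Sis climb in early progenitors, and Lct stays near 0 in the first 3 types.

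Each absorptive cell type was tested against the one before it with limma on the log2(TPM + 1) profiles of the 4 animals and Benjamini-Hochberg adjustment over 6689 genes. All 9 hydrolases passed the filter on low values, a mean of at least 10 TPM. Lct, Treh and Mme passed it only through their Enterocyte level: over the 4 earlier types they averaged 1.21, 5.38 and 9.32 TPM. These 3 had to be higher in the Enterocyte. Their gains and p-values at that step, the count of the members that rose into it, and the median beside it are therefore descriptions. How the type names were assigned is not given in the sources used here. If they came from the same transcriptomes, the p-values give the size of a step against the spread between animals and are no independent evidence for it. At the step from Stem to TA, 1 of the 9 rose, where 7.07% of all genes tested rose. From TA to early progenitors 4 rose (8.96% of all genes), from early to late progenitors 5 rose (7.67%), and from late progenitors to Enterocyte 8 rose (6.22%). None of the 9 fell at any step, where 1.35%, 3.86%, 13.5% and 18.1% of all genes fell at the 4 steps in turn. The median change of the 9 was 0.15, 0.98, 1.40 and 1.497 on the log2(TPM + 1) scale, beside 0.11, 0.02, -0.11 and -0.18 for all genes tested.

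**Figure D2:**
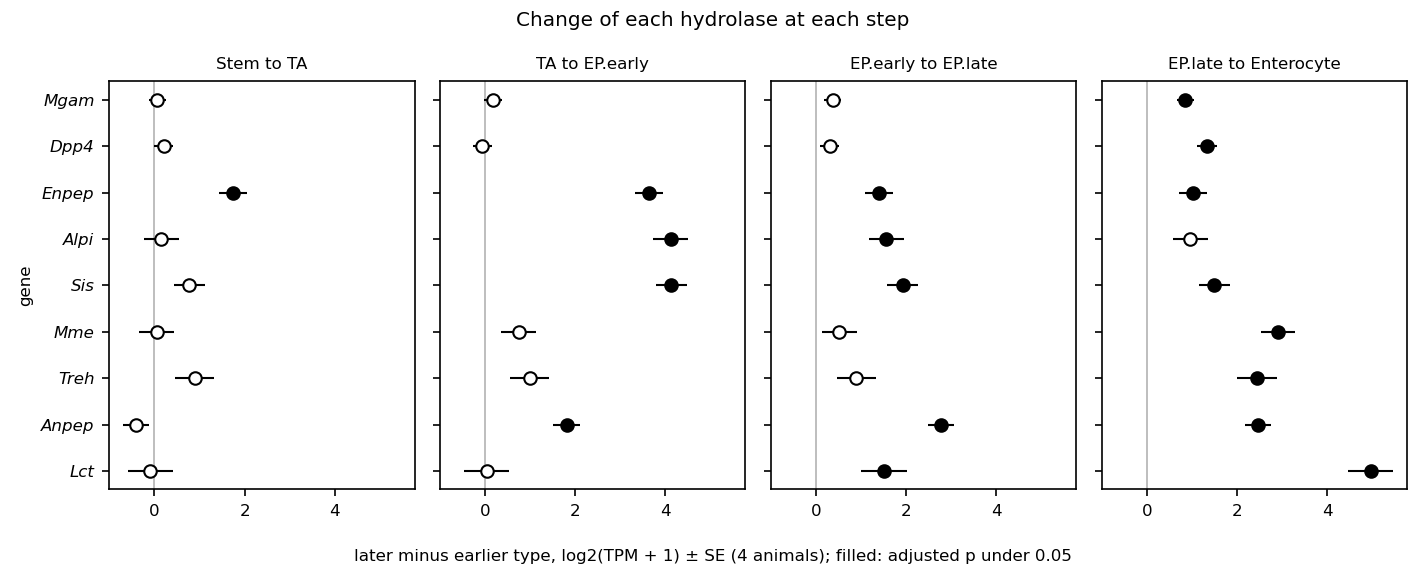
Change of each hydrolase at each of the 4 steps, as the later minus the earlier type on the log2(TPM + 1) scale, with standard errors over 4 animals. Filled points have an adjusted p under 0.05; they number 1, 4, 5 and 8 from left to right, and the Lct point at the last step lies farthest to the right.

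Mgam, which releases glucose from the short starch chains left by amylase, was already a stem cell transcript. It averaged 108.9 and 89.7 TPM in KO Stem cells and 84.4 and 98.6 TPM in WT Stem cells (animals M1 and M2, in this order throughout), and was above 0 TPM in all 96 Stem cells. In Enterocyte cells it averaged 201.1 and 249.1 TPM in KO and 416.4 and 230.99 TPM in WT. The level in Stem was thus 38.3% ± 14.2 of the level in Enterocyte (SD, n = 4 animals). The first 3 steps did not pass the test, with changes of 0.06, 0.17 and 0.37, and the last did, with a gain of 0.86 (log2 scale, SE 0.19, limma adjusted p = 0.00304).

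Dpp4, a peptidase that removes pairs of residues after proline or alanine and inactivates incretin hormones, was likewise a stem cell transcript. In Stem cells it averaged 49.2 and 40.5 TPM in KO and 36.1 and 48.9 TPM in WT, and 84.4% of the 96 cells were above 0 TPM. Its level stayed between 41.5 and 54.9 TPM in each animal's early progenitors. The step into Enterocyte was the only one that passed the test, with a gain of 1.33 (SE 0.21, adjusted p = 0.00018). All 4 animals gained at that step, by 0.17 and 1.502 in KO and by 1.78 and 1.89 in WT. Its exons overlap those of the antisense gene Gm13561 in part (GENCODE annotation), where reads of the 2 genes cannot be told apart without strand.

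These 2 early transcripts were not simply present in every epithelial cell at the same level. Goblet cells averaged 25.8 and 24.6 TPM of Mgam in KO and 40.8 and 28.9 TPM in WT, below the Stem level of the same animal in all 4 animals. Dpp4 in Goblet cells averaged 18.4 and 17.6 TPM in KO and 24.7 and 25.4 TPM in WT, again below the Stem level of each animal. Goblet cells had a median of 5816 genes detected and Stem cells 5688.

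Enpep, which takes acidic residues from the amino end of peptides such as angiotensin II, was the first of the others to move. It was above 0 TPM in 6.25% of Stem cells, 23.4% of TA cells, 85.9% of early progenitors and 98.7% of late progenitors, beside 7.14% of Goblet cells. In TA cells it averaged 6.53 and 8.97 TPM in KO and 5.50 and 4.22 TPM in WT, against 2.90 and 0.294 TPM in KO Stem cells and 3.03 and 0 TPM in WT Stem cells. The gain of 1.74 from Stem to TA passed the test (SE 0.31, adjusted p = 0.00135). It did not pass with run 1 cells alone, where it was 0.90 (adjusted p = 0.514), with log2 values averaged over cells, where it was 0.68 (adjusted p = 0.0658), or after quantile normalization, where it was 0.82 (adjusted p = 0.0535). The step from TA to early progenitors was larger, at 3.64 (SE 0.31, adjusted p = 2.44e-07), and gains of 1.40 (adjusted p = 0.00334) and 1.02 (adjusted p = 0.0227) followed. The gain of 1.40 missed the threshold with run 1 cells alone (1.30, adjusted p = 0.219) and with a pseudocount of 0.1 (1.41, adjusted p = 0.143). The last of these was called in 7 of 13 alternatives and lost its call, among others, without WT M1 (0.97, adjusted p = 0.0617) and without WT M2 (0.94, adjusted p = 0.0891).

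Alpi, which removes phosphate from lipids, nucleotides and bacterial lipopolysaccharide, went up at the same step as Enpep. It averaged 1.34 and 4.19 TPM in KO TA cells and 5.90 and 3.77 TPM in WT TA cells. In early progenitors it averaged 63.6 and 95.2 TPM in KO and 71.03 and 78.9 TPM in WT. The gain was 4.11 (SE 0.39, adjusted p = 6.57e-07). A further gain of 1.56 led to late progenitors (adjusted p = 0.00744), which was 1.502 without WT M2 and then missed the threshold (adjusted p = 0.0559). It also missed it with run 1 cells alone (1.66, adjusted p = 0.135) and with a pseudocount of 0.1 (1.57, adjusted p = 0.0868). Alpi was the 1 member that did not pass at the last step, with a difference of 0.97 (adjusted p = 0.0771); it passed in 4 alternatives, among them without KO M1 at 1.13 (adjusted p = 0.0259). By then the late progenitors held 53.4% ± 17.9 of the Enterocyte level (SD, n = 4). Alpi shares 2.40% of its 50-base stretches with other transcripts, all of them alkaline phosphatase genes or pseudogenes, so its level is uncertain over that share of its length.

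Sis, which splits sucrose and the branch points of starch, was close to absent in the crypt types. It averaged at most 1.30 TPM in the Stem cells of any animal. In TA cells it averaged 0.778 and 5.53 TPM in KO and 0.735 and 1.85 TPM in WT. In early progenitors it averaged 50.3 and 52.8 TPM in KO and 48.4 and 38.3 TPM in WT, and 74.6% of the cells were above 0 TPM, against 20% of Goblet cells. The gain of 4.13 passed the test (SE 0.34, adjusted p = 2.08e-07), and the lowest early progenitor value lay above the highest TA value. Gains of 1.92 (adjusted p = 0.000472) and 1.497 (adjusted p = 0.00353) followed, up to 497.6 and 581.2 TPM in KO Enterocyte cells and 746.9 and 324.2 TPM in WT Enterocyte cells. With run 1 cells alone the middle step was 1.62 and missed the threshold (adjusted p = 0.0549), and with run 2 cells alone the last was 1.39 and missed it (adjusted p = 0.0775). With a pseudocount of 0.1 the last was 1.501 and also missed it (adjusted p = 0.0758).

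Anpep, which removes neutral residues from the amino end of peptides, was the most abundant member in the Enterocyte. It averaged 1060 and 1676 TPM in KO and 1670 and 1471 TPM in WT. It was not silent before, with 57.3% of Stem cells above 0 TPM and a level of 7.02 and 19.9 TPM in KO and 22.9 and 9.93 TPM in WT. It rose at each of the 3 later steps, by 1.81 (SE 0.29, adjusted p = 0.000322), 2.77 (SE 0.29, adjusted p = 1.99e-06) and 2.47 (SE 0.29, adjusted p = 8.34e-06). The first of these missed the threshold with run 1 cells alone, at 2.09 (adjusted p = 0.0748).

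Mme, a peptidase that cuts within short peptides such as substance P and enkephalins, showed a low level in the crypt types and a late gain. In Stem cells it averaged 8.57 and 4.89 TPM in KO and 2.85 and 4.401 TPM in WT. In Enterocyte cells it averaged 112.5 and 108.6 TPM in KO and 77.7 and 143.5 TPM in WT, and 87.9% of the cells were above 0 TPM, against 5.71% of Goblet cells. The step from late progenitors to Enterocyte was 2.91 (SE 0.38, adjusted p = 2.51e-05), a description because Mme passed the filter only through its Enterocyte level. The 3 earlier steps, between 0.05 and 0.74, did not pass.

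Treh, which splits the fungal and insect sugar trehalose, followed the same course at a lower level. Late progenitors averaged 9.12 and 11.4 TPM in KO and 10.7 and 15.7 TPM in WT, and Enterocyte cells averaged 66.03 and 51.2 TPM in KO and 69.9 and 86.6 TPM in WT. The gain of 2.45 (SE 0.44, adjusted p = 0.000504) is a description, because Treh passed the filter only through its Enterocyte level. The earlier differences of 0.89, 0.98 and 0.90 did not pass. In other settings, the first passed without WT M1 at 1.70 (adjusted p = 0.0176), and the last of these passed after quantile normalization at 1.99 (adjusted p = 0.00187) and with a pseudocount of 10 at 0.45 (adjusted p = 0.0401). Treh was above 0 TPM in 68.97% of Enterocyte cells, the lowest share of the 9.

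Lct, which splits milk sugar, was the last to appear. It averaged at most 1.06 TPM in any animal's Stem, TA or early progenitor cells, where 4.17%, 9.14% and 9.15% of cells were above 0 TPM, no more than the 12.9% of Goblet cells. In late progenitors it averaged 5.14 and 6.07 TPM in KO and 0.116 and 3.39 TPM in WT, and in Enterocyte cells 98.8 and 98.1 TPM in KO and 115.5 and 174.9 TPM in WT. The step into the Enterocyte was 4.97 (SE 0.50, adjusted p = 1.72e-06), a description because Lct passed the filter only through its Enterocyte level. The smaller gain of 1.51 before it (adjusted p = 0.0391) was called in 2 of 12 alternatives. It missed the threshold without KO M1 (1.18), without KO M2 (1.22) and without WT M2 (1.59), with an adjusted p between 0.105 and 0.234. Even in the Enterocyte the cells differed widely, from 0 to 1243 TPM around a median of 45.8 TPM.

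A stage position was computed for each member and animal as the mean of the ranks 1 (Stem) to 5 (Enterocyte), weighted by TPM; it describes where the transcripts lie and was not tested. Mgam lay at 3.53 ± 0.24 and Dpp4 at 3.65 ± 0.23, and these 2 did not differ beyond their spread. Enpep (4.46 ± 0.08), Alpi (4.46 ± 0.05), Mme (4.51 ± 0.14), Treh (4.59 ± 0.05) and Sis (4.62 ± 0.06) formed a run in which no neighbour was separated from the next. Anpep (4.75 ± 0.06) followed Sis in all 4 animals, and Lct (4.94 ± 0.04) followed Anpep in all 4 (SD, n = 4 animals). Enpep followed Dpp4 by 0.81 ± 0.16. The position weights the high Enterocyte level, so Sis and Anpep come late in it although both had transcripts in earlier types.

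The type at which a member first reached a given share of its highest level depended on the share chosen. At 50%, Sis, Treh, Anpep, Mme and Lct reached it in Enterocyte in all 4 animals and Dpp4 in 3 of 4, with the other in Stem. Alpi and Enpep were split between late progenitors and Enterocyte, with 2 animals each, and Mgam had 1 animal each in Stem, early progenitors, late progenitors and Enterocyte. At 25%, Lct and Treh reached it in Enterocyte in all 4 animals, and Anpep and Mme in 3 of 4. Alpi and Sis did so in late progenitors in all 4 and Enpep in 3 of 4, while Mgam was in Stem in 3 of 4 and Dpp4 in 2 of 4. At 10%, Mgam and Dpp4 reached it in Stem in all 4 animals, Alpi and Enpep in early progenitors in all 4, Anpep in late progenitors in all 4 and Lct in Enterocyte in all 4. Sis was split between early and late progenitors, with 2 animals each. Treh was in late progenitors in 3 animals and in early progenitors in 1, and Mme in early progenitors in 2 and in late progenitors and Enterocyte in 1 each. At 10%, Mgam was the first of the disaccharidases and Lct the last, and of the peptidases Dpp4 came before Enpep and Enpep before Anpep, while Mme had no single place. Disaccharidases and peptidases both included early and late members.

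**Figure D3:**
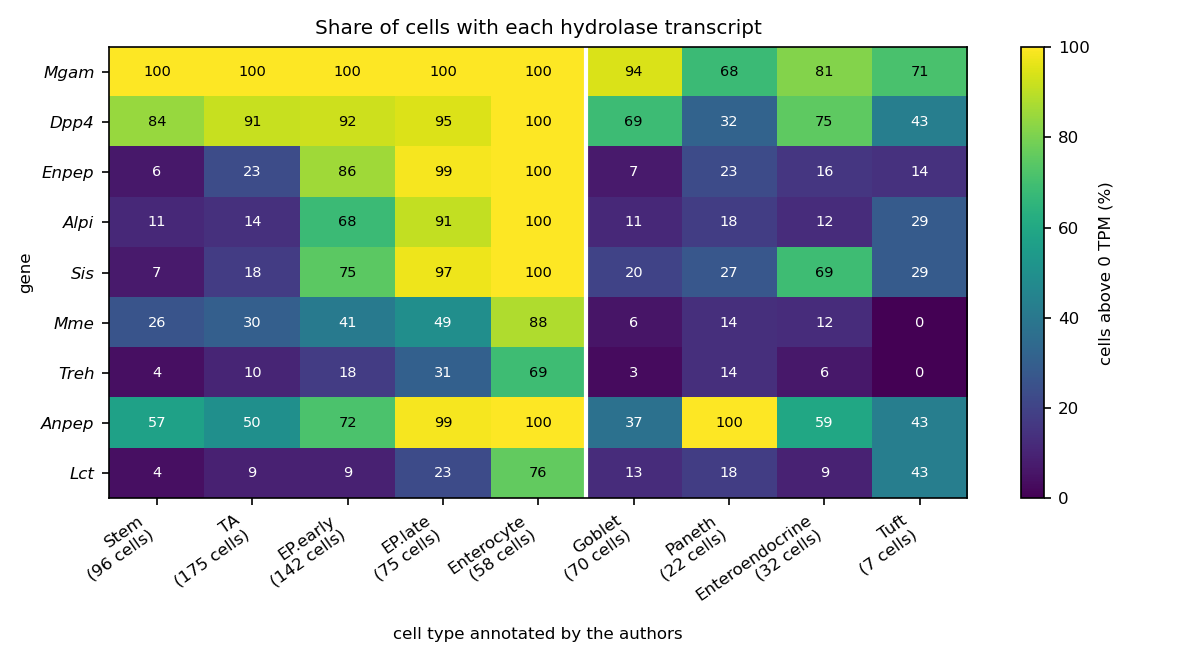
Share of cells above 0 TPM for each hydrolase (rows, from Mgam at the top to Lct at the bottom) in the 9 cell types (columns). The white line parts the absorptive types from the secretory ones, and the percent is printed in each field. Mgam is above 0 TPM in 100% of all 5 absorptive types, while Lct reaches 23% in late progenitors and 76% in Enterocyte cells.

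Within single cells the set filled up step by step. The median cell had 3 of the 9 transcripts above 0 TPM in Stem and in TA, 6 in early progenitors, 7 in late progenitors and 9 in Enterocyte. All 9 were found in 0 of 96 Stem cells, 4 early progenitors, 5 of 75 late progenitors and 33 of 58 Enterocyte cells (56.9%). The Goblet median was 2. Over all genes, a median of 5688 were detected in Stem, 6429 in TA, 6713 in early progenitor, 6079 in late progenitor and 5850 in Enterocyte cells. The part of the number of genes detected in these counts was not tested. Of the 25 early progenitors with Treh, 24 also had Alpi (96.0%), against 68.3% of all early progenitors. This is a description across cells that share animals and whose depth is unknown.

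Likeness among the members was measured across the 24 profiles of animals and types. The highest correlations among the 9 were between Sis and Enpep (Pearson r = 0.963), Sis and Alpi (0.952) and Enpep and Alpi (0.936), and the lowest was between Lct and Mgam (0.601). Treh and Lct were each most like Anpep (0.926 and 0.843), and Mme was most like Dpp4 (0.893). These profiles share animals, so the values are a description. Outside the group, the profile most like that of Enpep was Hnf4g (r = 0.981), a nuclear receptor of the gut epithelium, and the one most like Sis was Nat8 (r = 0.970). Lct was most like Apoa1 (r = 0.960) and Apoa4 (r = 0.956), 2 apolipoproteins of chylomicrons. Mgam was most like Ano6 (r = 0.953) and then Slc5a1 (r = 0.947), the sodium-glucose transporter that takes up the sugar Mgam releases. Anpep was most like Rbp2 (r = 0.971), Mme like Apob (r = 0.953), Treh like Acsl5 (r = 0.960), Alpi like Ms4a18 (r = 0.974) and Dpp4 like Epb4.1l3 (r = 0.926).

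Other peptidases of the same membrane were read from a list of 9, of which 7 passed the filter on low values. None was called from Stem to TA, where 7.07% of all genes tested rose. From TA to early progenitors 3 rose (8.96% of all genes), and the same 3 rose from early to late progenitors (7.67%). Into the Enterocyte 7 rose (6.22%). None fell, where 1.35%, 3.86%, 13.5% and 18.1% of all genes fell at the 4 steps in turn. The 3 were meprin beta (Mep1b, gain of 2.43 from TA to early progenitors, adjusted p = 0.0001), Naaladl1 (1.69) and the dipeptidase Dpep1 (1.98). At the last step the largest gains were those of gamma-glutamyltransferase (Ggt1, 4.94, SE 0.57, adjusted p = 6.97e-06), Xpnpep2 (3.799) and angiotensin-converting enzyme (Ace, 3.25). Ggt1, Xpnpep2 and Ace averaged at most 8.56, 5.49 and 9.98 TPM in any earlier type and passed the filter only through their Enterocyte level. So did Mep1a, at 7.28, 6.03, 9.82 and 16.6 TPM in the 4 earlier types. All of these had to be higher in the Enterocyte, so their gains and the count of 7 are descriptions. Ggt1 averaged 1.82 TPM in early progenitors, 8.56 TPM in late progenitors and 245.4 TPM in Enterocyte cells, and its profile was the third most like that of Lct (r = 0.951). Tmprss15, the enteropeptidase that activates trypsinogen, averaged at most 0.253 TPM in any of the 5 types.

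Of 8 other phosphatases and lipid hydrolases only Alppl2 passed the filter, and it rose from TA to early progenitors by 3.04 (SE 0.45, adjusted p = 0.000129). It averaged 0 TPM in Stem, 0.669 TPM in TA, and 11.8, 26.01 and 23.4 TPM in the 3 later types. It passed the filter only with its Enterocyte level included, so the gain is a description. Alkaline sphingomyelinase (Enpp7) averaged 0.0843 TPM in late progenitors and 183.7 TPM in Enterocyte cells, without passing the filter over all 5 types. It was above 0 TPM in only 12 of 58 Enterocyte cells, up to 2816 TPM in 1 cell. The Enterocyte cells of the animals averaged 2.59 and 148.8 TPM in KO and 242.8 and 340.5 TPM in WT. Among 12 transcription factors known to act on hydrolase genes, 9 passed the filter. Hnf4g rose from TA to early progenitors by 1.29 (SE 0.26, adjusted p = 0.00242) and to late progenitors by a further 0.94 (adjusted p = 0.0158). Hnf4a fell by 0.58 (adjusted p = 0.0028) and 0.49 (adjusted p = 0.00795) over the last 2 steps. Cdx1 (0.58) and Elf3 (0.52) fell by those amounts at the last. Called lower were 1 of the 9 from early to late progenitors (13.5% of all genes) and 3 into the Enterocyte (18.1%). Called higher was 1 at the step to early progenitors (8.96% of all genes) and 1 at the step to late progenitors (7.67%).

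**Figure D4:**
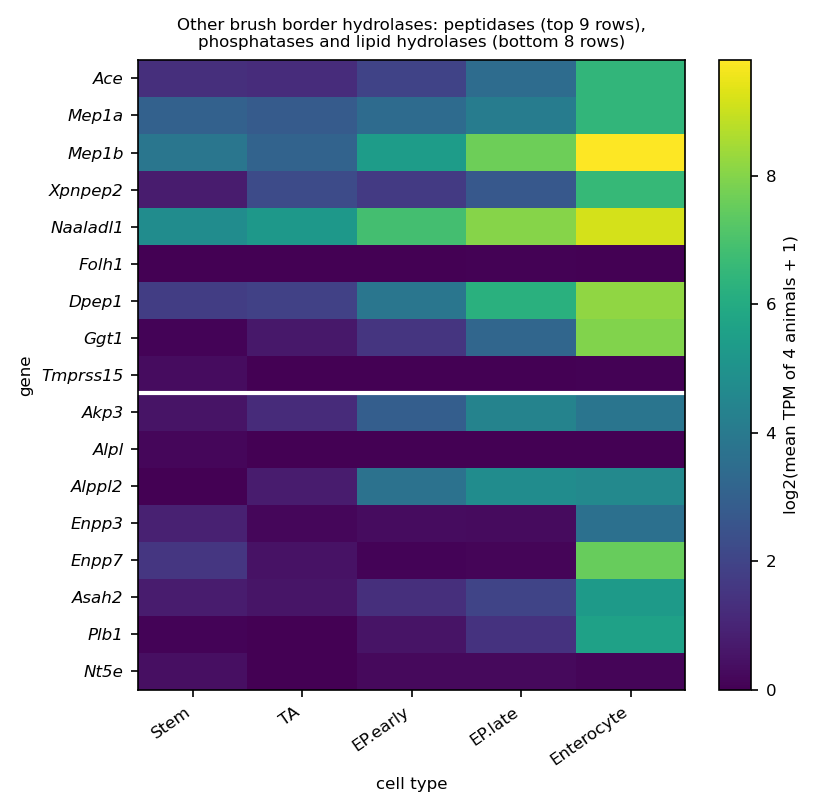
Mean level of 17 other brush border hydrolases over the 4 animals, as log2(TPM + 1), along the 5 absorptive types. Most peptidases are highest in the Enterocyte column, while Folh1, Tmprss15, Alpl and Nt5e stay near 0 in all 5.

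Whether loss of Atg16l2 changed the hydrolases was asked in the average of early progenitors, late progenitors and Enterocyte, and then in each of 6 cell types, by limma with 2 KO against 2 WT animals. None of the 9 passed in the average, where 0.126% of 6360 genes did, and 1 of the 9 had an unadjusted p under 0.05, as did 6.56% of all genes. Mme came nearest, with a difference of 0.80 (KO minus WT, log2 scale, 95% interval 0.24 to 1.35, adjusted p = 0.572). Anpep differed by 0.44 (-0.10 to 0.98), Enpep by 0.31 (-0.02 to 0.65), Lct by 0.26 (-0.71 to 1.23), Sis by 0.23 (-0.27 to 0.73) and Alpi by 0.13 (-0.29 to 0.55). Dpp4 differed by -0.07 (-0.45 to 0.32), Mgam by -0.12 (-0.59 to 0.36) and Treh by -0.40 (-0.99 to 0.19). With 2 animals a side the intervals are wide, and none of them shows that a level was the same. The KO and WT animals did not overlap for 3 of the 9 in this average, as for 35.4% of all genes; Enpep and Mme were above and Treh below.

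Leaving out an animal changed these values. Without KO M1, the difference was 0.83 for Anpep in the average, and 1.09 for Anpep and 2.32 for Mme in late progenitors. KO M2 then stands alone for its genotype, so calls from that fit are not read. In late progenitors Mme passed the filter only through its KO level. The Anpep level of KO M2 in late progenitors was 753.6 TPM in its run 1 cells and 195.03 TPM in its run 2 cells. Without the run 1 cells of KO M2, Enpep and Sis stood at -0.037 and -0.080 in the average.

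In early progenitors all 6 members that passed the filter there were higher in KO, as were 58.98% of all genes tested, and 4 of them had both KO animals above both WT animals, against 22.7% of all genes. None passed the test, nor did any of the 6565 genes tested (0%), of which 5.51% had an unadjusted p under 0.05. Anpep averaged 48.7 and 62.9 TPM in KO and 18.8 and 33.1 TPM in WT, a difference of 1.12 with an interval of 0.40 to 1.83 (unadjusted p = 0.00674, limma adjusted p = 0.822). Within run 1 the difference was 1.48 and within run 2 it was 0.92. Enpep averaged 117.1 and 96.9 TPM in KO and 72.9 and 70.1 TPM in WT, a difference of 0.57 (adjusted p = 0.822). Within run 1 it was 1.25 and within run 2 it was -0.086, so its direction did not hold in both runs. All 8 enterocyte markers were detected and their sum was 2542 and 2423 TPM in KO and 1942 and 2029 TPM in WT early progenitors, higher in both KO animals like the 4 members. The sum of 5 proximal small intestine markers was 505.9 and 570.04 TPM in KO and 469.2 and 342.8 TPM in WT, again without overlap. Paneth markers summed to 3212 and 158.1 TPM in KO and 505.2 and 106.03 TPM in WT. None of these markers was at 0, and their part in the result was not tested.

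In late progenitors Mme averaged 19.7 and 36.5 TPM in KO and 7.95 and 5.30 TPM in WT, with no overlap between genotypes. The difference of 1.89 had an interval of 0.68 to 3.11 (unadjusted p = 0.00569, adjusted p = 0.673), and was 1.98 within run 1 and 1.67 within run 2. Mme passed the filter here only through its KO level, with a mean of 28.1 TPM in KO and 6.63 TPM in WT. It had to be higher in KO, so its difference, its p-values and its place in the count that follows are descriptions. Enpep and Dpp4 also had both KO animals above both WT animals, making 3 of the 8 members that passed the filter, against 14.5% of all genes in that direction; 0.0817% of 6120 genes passed the test and no member did. The sum of the enterocyte markers was 6183 and 5905 TPM in KO and 3746 and 4467 TPM in WT late progenitors, and that of 5 proximal small intestine markers was 1274 and 1308 TPM in KO and 778 and 638 TPM in WT. None of these markers was at 0, and their part in the result was not tested. Paneth markers summed to 8416 TPM in KO M2 and to 605 TPM in KO M1 late progenitors, against 51.2 and 63.2 TPM in WT.

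In Enterocyte cells 6 of the 9 members were lower in KO and 3 were higher. Lct, Treh and Dpp4 had both KO animals below both WT animals, 3 of 9 members, against 21.6% of all genes in that direction, and none of the 9 passed the test (0.0342% of 5854 genes did). Dpp4 averaged 89.2 and 158.1 TPM in KO and 184.1 and 198.6 TPM in WT, a difference of -0.68 with an interval of -1.35 to -0.01 (unadjusted p = 0.0464, adjusted p = 0.591). It was -0.39 within run 1, -0.58 within run 2, -0.27 without KO M1 and -1.09 without KO M2. Lct, at 98.8 and 98.1 TPM in KO and 115.5 and 174.9 TPM in WT, differed by -0.53 (adjusted p = 0.665). The enterocyte markers had a sum of 25556 and 24535 TPM in KO and 25451 and 35966 TPM in WT Enterocyte cells. The sum of 6 T cell markers was 20.4 and 10.5 TPM in KO and 0.902 and 1.58 TPM in WT, none of them at 0, and that of the proximal markers was 3339 and 4365 TPM in KO and 2549 and 2255 TPM in WT. Stem markers summed to 355.4 and 36.1 TPM in KO and 18.1 and 11.9 TPM in WT, and Paneth markers to 3486 and 469.9 TPM in KO and 146.3 and 79.2 TPM in WT, both without overlap. Goblet markers summed to 48.4 and 2244 TPM in KO and 41.4 and 58.9 TPM in WT. None of these markers was at 0. The part of these genes in the result was not tested.

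**Figure D5:**
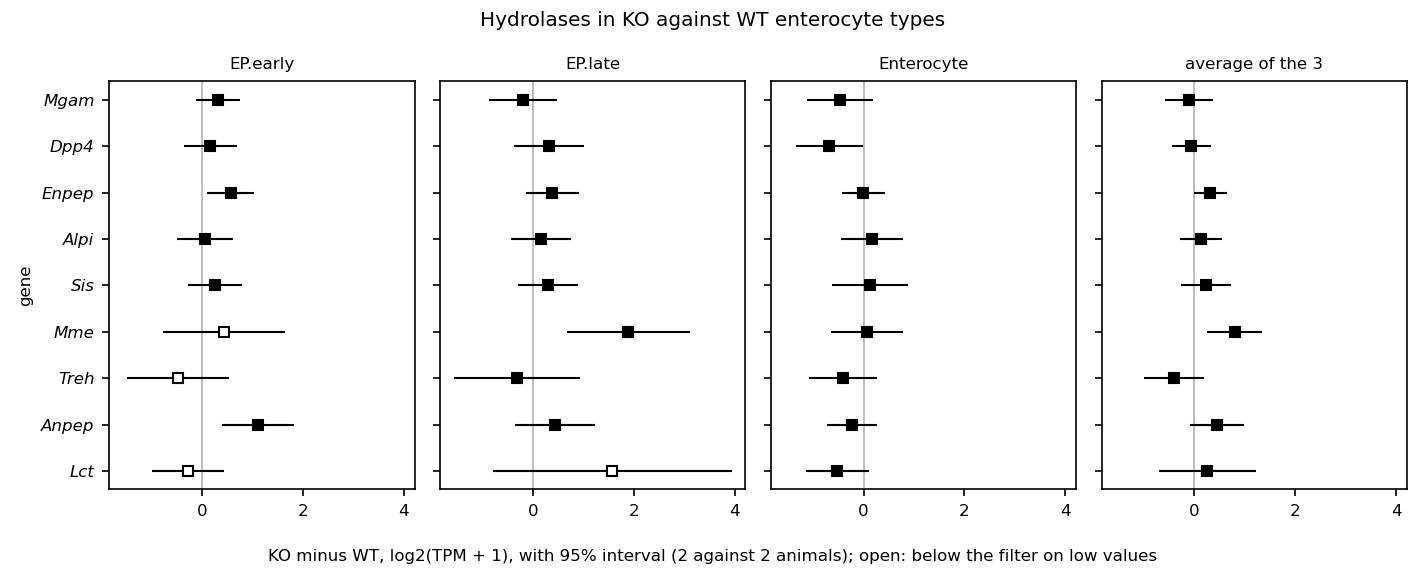
Difference between KO and WT (log2(TPM + 1), 2 against 2 animals) for each hydrolase in early progenitors, late progenitors, Enterocyte cells and the average of the 3, with 95% intervals. Filled squares passed the filter on low values in that type and open ones did not; no adjusted p was under 0.05, and the widest interval, that of Lct in late progenitors, runs from -0.79 to 3.94.

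The members also had no called difference in Stem (3 passed the filter, 0% of 6764 genes called, 5.5% at an unadjusted p under 0.05), TA (3 passed, 0.0589% of 6791 genes called) or Goblet cells (2 passed, 0.0161% of 6208 genes called). A moderated F test asked whether the course from Stem to Enterocyte differed between KO and WT. None of the 9 passed, with 0.0149% of 6689 genes called. The smallest adjusted p was 0.693, for Anpep, and Dpp4, whose sign in late progenitors was opposite to that in Enterocyte cells, had 0.746. The other brush border peptidases had no called difference in any of these comparisons; in Enterocyte cells all 7 that passed the filter were lower in KO, with Ggt1 at -1.12 (adjusted p = 0.324), and 46.6% of all genes tested there were higher.

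Outside the absorptive line, the Paneth, Enteroendocrine and Tuft cells were too few for a test and are described only. Sis was above 0 TPM in 22 of 32 Enteroendocrine cells, with 54.8 and 169.2 TPM in KO and 118.1 and 101.8 TPM in WT, while Lct was above 0 TPM in 3 of those 32. Dpp4 averaged 40.8 and 120.2 TPM in KO and 154.5 and 86.3 TPM in WT Enteroendocrine cells. The 8 enterocyte markers had a median sum of 1322 TPM in the Enteroendocrine cells with Sis and 1138 TPM in those at 0. In Paneth cells Anpep was above 0 TPM in 22 of 22 cells, but at a median of only 2.84 TPM. Of the 7 Tuft cells none had Treh or Mme, which allows a share of up to 42.9%.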

How the data were processed

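Primary intestinal epithelial cells of KO and WT mice were sequenced one by one. Per the labels, the library protocol was SMART-Seq2; a 10X Genomics kit is also named, without saying for which cells. Per the submitters' processing notes, Bowtie, TopHat and RSEM were used; their versions and the genome build are not given there. TPM values for 23420 genes were deposited by the authors and sum to between 999999.17 and 1000000.78 in each cell and keep no depth.

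Genotype, animal code, run and cell type came from the library titles. M1 and M2 were read as animals, which the labels do not spell out, nor do they say whether M1 is the same animal in both runs; p-values measure the spread between these animals. No cell was removed and no doublet caller was run. TPM was averaged over the cells of an animal and type and taken as log2(TPM + 1), so fold changes of low genes are understated. The filter asked for a mean TPM of 10 or more and a value above 0 in 10% or more of the cells; types needed at least 10 cells in each animal for a test (6 of 9 types). Tests used limma 3.58.1 in R 4.3.3 (lmFit, eBayes with trend, two-sided, Benjamini-Hochberg over all kept genes, 0.05). Steps were fitted on 20 profiles with the animal as a block (residual df 12), KO against WT on 4 animals (residual df 2) and the interaction on 20 profiles (residual df 8). The fits were tested on simulated data. Shares allowed at a count of 0 are 3 divided by the cells and cover counting error only. Each library is 1 cell, so libraries share no cell barcodes.

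Likeness is Pearson's r over 24 profiles. A gene of the list of other peptidases is not reported here. The text names all members, the other genes with the smallest p in their lists, and the genes most like each member. Members, lists and tests were chosen with earlier results of these data known. Upstream sequences are RefSeq's (GRCm38.p6), and all 9 members matched; that build need not be the one used for the TPM values. Alternatives were other pseudocounts, no filter, log2 averaged over cells, quantile normalization, each run alone, cells or animals left out, the M number as a block, and 8 profiles by run and animal.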

Additional observations from a re-analysis of the deposited data

Results flagged for a closer look

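A member above 0 TPM in a larger share of cells of an untested secretory type than in Goblet cells, by an exact binomial 95% interval, drew attention in 5 cases; the intervals cover counting error only and cells of an animal are not independent. Sis was above 0 TPM in 68.8% of 32 Enteroendocrine cells (interval 49.99% to 83.9%), against 20% of Goblet cells, and it was present in Enteroendocrine cells of all 4 animals. Anpep was above 0 TPM in 59.4% of Enteroendocrine cells and in 100% of 22 Paneth cells, against 37.1% of Goblet cells. Enpep (22.7% against 7.14%) and Treh (13.6% against 2.86%) rest on 5 and 3 Paneth cells. The median sum of the enterocyte markers was 3090 TPM in the 3 Paneth cells with Treh and 17.7 TPM in the 19 at 0; its part in the result was not tested.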

How the results depend on the processing

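Of the 18 steps called for a member, 10 were called in every alternative that gave a value and 8 were not in 1 or more. The cause was not tested. The 10 include the last steps of Lct, Treh and Mme, which are descriptions because of the filter. The members called from Stem to TA were 0 with log2 averaged over cells, with quantile normalization and with run 1 cells only, and 1 to 2 when an animal was left out (2 without WT M1). From early to late progenitors they were 2 with a pseudocount of 0.1, 1 with run 1 cells only and 3 to 5 when an animal was left out (3 without WT M2); the largest loss was Lct, called in 2 of 12 alternatives. From TA to early progenitors they were 4 without any 1 animal and into the Enterocyte 7 to 9. Between KO and WT, members called were 0 in every alternative that kept all 4 animals. Calls made without KO M1 rest on 1 KO animal and are not read. Members with onset in Enterocyte in every animal were 5 at a threshold of 50% of the highest type, 1 at 10% and 2 at 25%.

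The sign turned only in differences that were not called. With a pseudocount of 0.1, Lct from Stem to TA was 0.077; with 10, Alpi from Stem to TA was -0.044 and Lct between KO and WT -0.035. With log2 averaged over cells, Alpi from Stem to TA was -0.00424, Dpp4 from TA to early progenitors 0.047 and Dpp4 between KO and WT 0.0785. Quantile normalization gave -0.23 (Sis), -0.080 (Mgam), -0.062 (Treh), -0.62 (Mme) and -0.64 (Alpi) from Stem to TA and -0.12 (Lct) from TA to early progenitors. Run 1 alone gave -0.13 (Mgam) and 0.15 (Anpep) from Stem to TA, and 0.083 (Mgam) and 0.22 (Dpp4) between KO and WT. Run 2 alone gave 0.28 (Lct) and -0.032 (Mme) from Stem to TA, -0.39 (Lct) from TA to early progenitors, and between KO and WT -0.093 (Sis), -0.41 (Lct), 0.24 (Treh), -0.20 (Enpep) and -0.042 (Alpi), with -0.086 for Enpep in early progenitors. Without the run 1 cells of KO M2, Lct was 0.00525 from Stem to TA and -0.18 to early progenitors, Dpp4 0.051 at that second step, and KO minus WT -0.080 (Sis), -0.16 (Lct) and -0.037 (Enpep). Without the highest cell, Lct from Stem to TA was 0.16. With 8 profiles by run and animal, Dpp4 between KO and WT was 0.000935.

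With 1 animal left out, steps from Stem to TA ran from -0.15 to 0.67 (Alpi), -0.018 to 0.13 (Mgam), -0.15 to 0.33 (Mme) and -0.27 to 0.068 (Lct), the step of Lct to early progenitors from -0.21 to 0.26, and KO minus WT from -0.39 to 0.16 (Mgam), -0.10 to 0.35 (Alpi), -0.27 to 0.79 (Lct) and -0.11 to 0.56 (Sis). The animal left alone in its genotype is then assumed to vary like the others.

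The M numbers gave no sign of pairing the samples (correlation of deviations -0.07 over 6360 genes). With 2 animals per genotype this cannot exclude a pairing. With the number as a replicate block, 0 members and 63 genes were called in the average, against 0 and 8 without it. Over all alternatives, the genes called in the average ran from 0 to 13.1 times the 8 of the main setting, in TA from 0 to 58.5 times 4, in late progenitors from 0 to 27.4 times 5, in Enterocyte from 0 to 55 (2), in Goblet from 0 to 48 (1), in Stem from 0 to 13 (0), in early progenitors from 0 to 6 (0) and in the difference of the steps from 0 to 31 (1). Genes called along the line fell to 0.316, 0.349, 0.352 and 0.476 of the 563, 857, 1416 and 1629 of the 4 steps with the cells of 1 run, and reached 1145 from Stem to TA with log2 averaged over cells. With log2 averaged over cells, Lct and Treh, and Mme in late progenitors, lay under the filter and gave no value. Depth is unknown, and 10 to 22 late progenitors and 11 to 18 Enterocyte cells per animal limit the precision.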
